A study of Mus musculus with 7 samples.

Results

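Astrocyte handling of potassium, water and ions was followed through 7 genes in 7 RNA-seq libraries of mouse amygdala cells: Atp1b2, Kcnj10, Kcnj16, Aqp4, Slc4a4, Mlc1 and Hepacam. They were picked by name from the 35976 genes of the count table, all 7 were present, and all 7 passed the filter on low counts that left 14936 genes for testing. The choice used their known roles as pump, channel, transporter and endfoot genes, and it was made with earlier results of these data known. Atp1b2 has a place of its own, because it encodes ACSA-2, the antigen by which the cells were pulled out, and each of the other 6 genes was therefore also related to it library by library.

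The libraries came from the amygdala of male C57BL/6J mice. An adeno-associated virus carried Cas9 under the astrocyte promoter GfaABC1D and a guide against Egfr, the epidermal growth factor receptor gene (sgEgfr, 3 libraries), or against the Rosa26 locus as the control (sgRosa, 4 libraries). Both groups expressed the virus for more than 2 weeks and then went through tube restraint (7 days), fear conditioning (1 day) and extinction training (3 days), so that no unstressed group or group without virus was compared. Cells were freed with papain and enriched with anti-ACSA-2 beads, and 5 ng of total RNA went into each library. The labels give neither the age of the mice nor the number of mice behind a library, and they do not say that each library was a separate animal, so p-values measure the spread between libraries. All cells caught by the beads entered a library, whether or not the virus had reached them.

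Astrocytes take up the potassium that active neurons release, partly through the sodium pump and partly through inwardly rectifying channels, and pass it on through their coupled network. Their endfeet on blood vessels carry a dense array of the water channel AQP4 together with the Kir4.1 potassium channel and the MLC1-HEPACAM membrane complex. Loss of Kir4.1, MLC1 or HEPACAM function in people causes disorders of seizures, brain water or white matter, so these genes are read as markers of the homeostatic state of astrocytes.

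Library depth ran from 5852870 counts in sgRosa 4 to 22579222 in sgEgfr 3. Libraries 3 and 4 of sgRosa differed only slightly beyond counting error (chi-square 1.04 per degree of freedom over 13563 genes, against 14.8 to 158 for the other 20 pairs). They were therefore summed into 1 sample, sgRosa 3+4. This left 3 samples per guide. Counts of Egfr itself numbered 188, 55, 109 and 58 for sgRosa 1 to 4 and 169, 87 and 184 for sgEgfr 1 to 3, with a log2 fold change of -0.13 (SE 0.54, edgeR adjusted p = 0.997) that ran from -0.55 without sgRosa 2 to 0.27 without sgRosa 1. Small Cas9 deletions need not lower an mRNA, so this count does not check the guide. All 15 astrocyte markers of a list that holds none of the 7 genes were detected in every library. They took 0.525% to 1.38% of the counts of a sample, against 7.42% to 14.6% for 15 oligodendrocyte markers, so the enriched cells held much RNA of oligodendrocytes as well. The sample sgRosa 2 stood apart, with the lowest share of astrocyte markers and 21.1 oligodendrocyte marker counts for each astrocyte marker count. The other 5 samples had between 5.75 and 16.7.

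Genomic positions, exon lengths and overlaps were read from GENCODE M21 on GRCm38, the build (mm10) that the submitters name. Atp1b2 lies on the reverse strand of chromosome 11, from 69599736 to 69605942, and Kcnj16 on the forward strand of the same chromosome, from 110968033 to 111027968. Kcnj10 lies on chromosome 1 (172341210 to 172374085), Slc4a4 on chromosome 5 (88886818 to 89239653), Mlc1 on chromosome 15 (88955884 to 88979007) and Hepacam on chromosome 9 (37367351 to 37386575). No exon base of the 7 genes is shared with another gene of that annotation, which need not be the one used for counting.

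Promoters are shown for the 3 genes with a single listed start. The values that follow differ among them: Mlc1 ran parallel to Atp1b2 over the samples, Kcnj10 had the most negative of the 6 differences relative to Atp1b2, which was not called, and Hepacam kept nearly the same level throughout. No link between promoter and level was tested. Each promoter is the RefSeq window (GRCm38.p6) around the RefSeq transcript start, mostly upstream of it, on the strand of the gene. The RefSeq start of Kcnj10, 172341210, is also its GENCODE start. Those of Mlc1 (88978553) and Hepacam (37367606) lie inside the GENCODE gene, and so do their whole windows. Kcnj16 has 4 listed starts, Slc4a4 has 2, and Atp1b2 and Aqp4 have 0. The counts do not tell starts apart. Capitals mark the letters TTGGC or, on the other strand, GCCAA, which form the half-site bound by NFI factors, regulators of astrocyte genes.
Kcnj10, chr1:172340960-172341259, forward strand: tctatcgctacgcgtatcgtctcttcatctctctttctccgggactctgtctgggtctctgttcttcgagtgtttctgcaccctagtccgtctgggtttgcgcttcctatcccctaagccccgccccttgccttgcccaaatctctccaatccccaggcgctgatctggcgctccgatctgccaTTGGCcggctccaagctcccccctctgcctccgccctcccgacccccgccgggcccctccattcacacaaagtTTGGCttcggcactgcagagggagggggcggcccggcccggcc
Mlc1, chr15:88978504-88978803, reverse strand: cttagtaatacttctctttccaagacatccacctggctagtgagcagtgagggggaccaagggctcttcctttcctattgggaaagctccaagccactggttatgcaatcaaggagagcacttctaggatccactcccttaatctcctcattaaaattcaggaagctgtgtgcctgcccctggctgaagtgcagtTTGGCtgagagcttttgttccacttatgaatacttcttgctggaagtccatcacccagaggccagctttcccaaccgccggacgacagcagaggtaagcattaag
Hepacam, chr9:37367356-37367655, forward strand: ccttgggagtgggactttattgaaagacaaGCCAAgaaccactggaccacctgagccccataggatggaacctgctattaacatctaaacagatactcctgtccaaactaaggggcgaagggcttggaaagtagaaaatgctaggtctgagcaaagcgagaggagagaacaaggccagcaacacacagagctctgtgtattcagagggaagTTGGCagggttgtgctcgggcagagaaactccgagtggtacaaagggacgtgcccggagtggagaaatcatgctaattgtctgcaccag

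The half-site occurs 2 times in the Kcnj10 window, 1 time in that of Mlc1 and 2 times in that of Hepacam, and 46.7% of all 32851 promoter windows of this length in the table hold it on either strand. The AP-1 motif TGANTCA, at which factors downstream of growth factor receptors bind, and the TATA box TATAAA are in none of these 3 windows. They occur in 7.81% and 13.6% of all windows. The SOX core ACAAT occurs 1 time, in the Hepacam window, and in 31% of all windows. These are matches of letters and say nothing about whether a factor binds.

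Per kilobase of exon, Atp1b2 had the highest level and Kcnj16 the lowest. Levels here are CPM, counts scaled by library size and by the TMM factors of edgeR, divided by exon length. Atp1b2 averaged 304 CPM per kilobase over the 6 samples, Hepacam 159, Mlc1 153, Kcnj10 106, Slc4a4 56.6, Aqp4 35.2 and Kcnj16 19.1. Kcnj16 was the lowest and Aqp4 the next lowest in every sample, and Atp1b2 was the highest in every sample but sgRosa 2, where Hepacam exceeded it. Kcnj16, Aqp4, Slc4a4 and Kcnj10 kept this order within each of the 6 samples, although in sgEgfr 2 Aqp4 and Slc4a4 were close, at 42.0 and 42.3 CPM per kilobase. The order of Slc4a4 and Kcnj10 rested on their exon lengths, 10.8 and 5.41 kilobases over all annotated exons. Before that division, Slc4a4 lay above Kcnj10 in some samples (898 against 736 CPM in sgRosa 3+4) and below it in others (339 against 424 CPM in sgRosa 2). The order of Atp1b2, Hepacam, Mlc1 and Kcnj10 among themselves was not the same in every sample. Hepacam ran from 138 to 177 CPM per kilobase and Mlc1 from 53.4 to 230.

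None of the 7 genes differed between the guides beyond the spread of the samples. Of 14936 genes tested with edgeR's quasi-likelihood test, 0 (0%) were called at an adjusted p under 0.05, and 401 (2.68%) had an unadjusted p under 0.05. DESeq2 and limma-voom also called 0, with 500 and 418 genes at an unadjusted p under 0.05. Of the 7 genes, 0 had an unadjusted p under 0.05. Positive log2 fold changes were found for 4 and negative ones for 3 of them, with a median of 0.25 against 0.02 over all genes tested. Groups overlapped in CPM for every one of the 7, whereas 7.61% of all genes had groups that did not. In bulk samples, fewer cells of a type and less RNA per cell cannot be told apart.

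**Figure D1:**
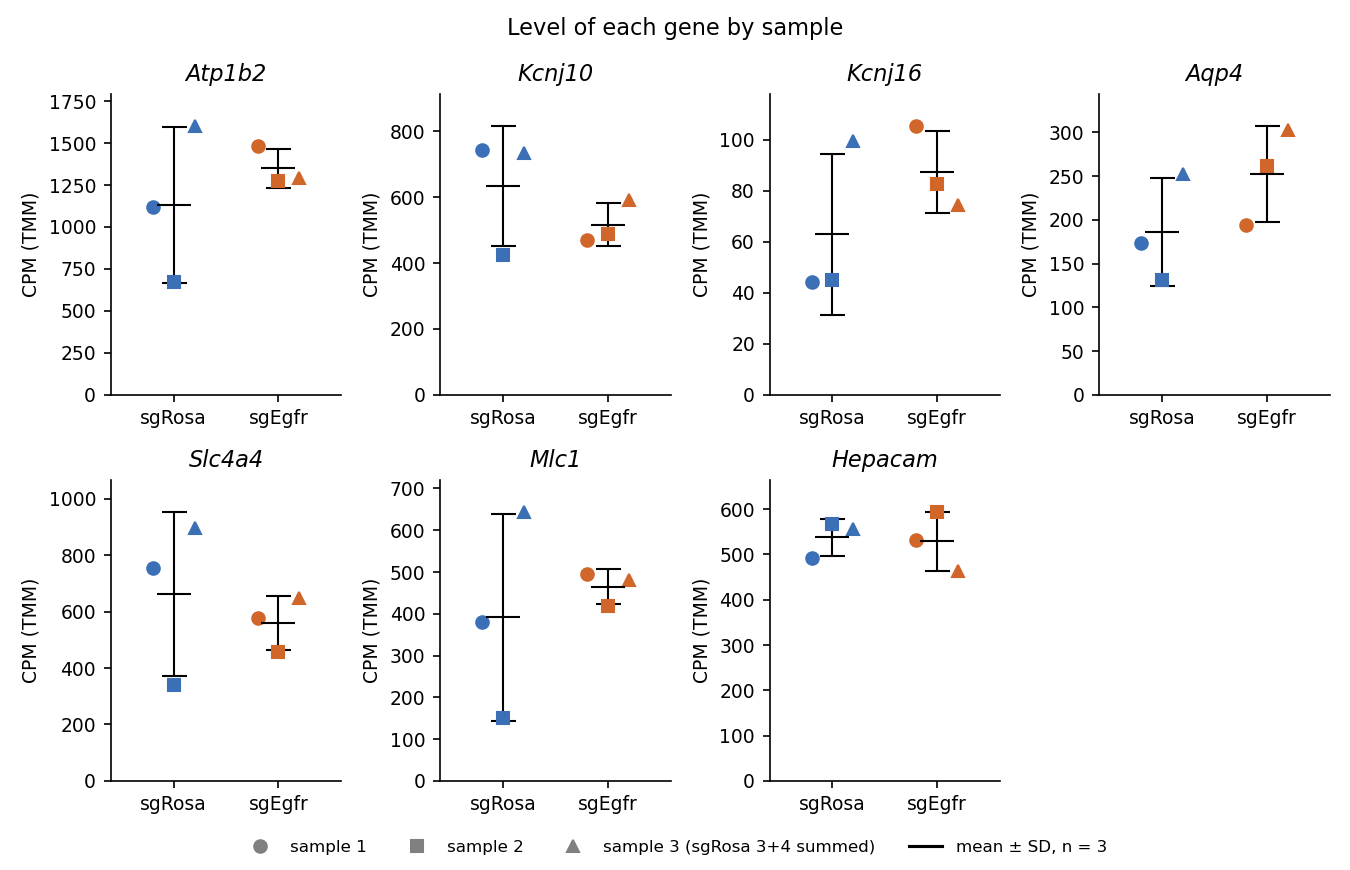
Level of each of the 7 genes (CPM with TMM scaling, linear axis from 0) in the 3 sgRosa and 3 sgEgfr samples; points are samples and black marks the mean ± SD. The sgRosa points span a wide range for 6 genes, from 150 to 644 CPM for Mlc1, and a narrow one for Hepacam, and in no panel do the groups separate. Within that range sgRosa 1 and 2 nearly coincide for Kcnj16 (44.4 and 44.9 CPM), as do sgRosa 1 and 3+4 for Kcnj10 (744 and 736 CPM).

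Atp1b2 encodes the beta-2 subunit of the sodium pump, also known as AMOG, which brings the catalytic subunit to the membrane and acts in adhesion between neurons and glia. Counts of Atp1b2 numbered 15866, 12809, 15917 and 9291 for the libraries sgRosa 1 to 4, and 23380, 19454 and 29548 for sgEgfr 1 to 3. As CPM this was 1119.7, 669 and 1603 in sgRosa 1, 2 and 3+4 and 1483, 1273 and 1292 in sgEgfr 1 to 3. The sgRosa samples thus held both the lowest and the highest level, and the sgEgfr samples lay between them. The log2 fold change of sgEgfr over sgRosa, 0.25, had an SE of 0.32 and a 95% interval from -0.50 to 1.01 (edgeR adjusted p = 0.997), and without sgRosa 2 it was -0.015. Against the summed astrocyte markers, Atp1b2 had 8.66, 13.3 and 11.6 counts per 100 marker counts in sgRosa 1, 2 and 3+4 and 12.5, 13.03 and 11.8 in sgEgfr 1 to 3. On this scale sgRosa 2 was the highest sample and sgRosa 1 the lowest, so the low CPM of Atp1b2 in sgRosa 2 went with low counts of the other astrocyte genes.

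Kcnj10 encodes Kir4.1, the main inwardly rectifying potassium channel of astrocytes, which oligodendrocytes also express. The samples sgRosa 1, 2 and 3+4 reached 744, 424 and 736 CPM, and sgEgfr 1 to 3 reached 470.4, 488 and 592 CPM. All 3 sgEgfr samples lay below sgRosa 1 and sgRosa 3+4 and above sgRosa 2. The log2 fold change of sgEgfr over sgRosa, -0.30, had an SE of 0.26 and a 95% interval from -0.90 to 0.31 (edgeR adjusted p = 0.997), and the value was -0.52 without sgRosa 2 and -0.17 without sgRosa 1.

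Kcnj16 encodes Kir5.1, which forms channels together with Kir4.1 and makes them sensitive to pH. Its level was 44.4, 44.9 and 99.5 CPM in sgRosa 1, 2 and 3+4 and 106, 82.5 and 74.4 CPM in sgEgfr 1 to 3. sgRosa 1 and 2 were low and nearly equal, and sgRosa 3+4 lay among the sgEgfr samples. The log2 fold change of sgEgfr over sgRosa, 0.48, had an SE of 0.33 and a 95% interval from -0.30 to 1.25 (edgeR adjusted p = 0.997). It was 0.97 without sgRosa 3 and 4 and 0.28 without sgRosa 2 and without sgRosa 1, with no call in any of them.

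The balance of the 2 channel subunits, a comparison chosen after their values had been seen, was 5.96, 10.6 and 13.5 Kcnj16 counts per 100 Kcnj10 counts in sgRosa 1, 2 and 3+4. It was 22.4, 16.9 and 12.6 in sgEgfr 1 to 3. The 2 highest samples carried sgEgfr, but sgEgfr 3 lay below sgRosa 3+4, and the groups overlapped. The mean difference was 0.83 on the log2 scale (exact two-sided permutation p = 0.2, where 0.1 is the smallest that 3 samples against 3 can give), and 0.49 to 1.04 with each library left out. Markers of oligodendrocyte precursors, cells that express Kcnj16 too, took 0.0781% to 0.0967% of the counts in sgRosa and 0.102% to 0.166% in sgEgfr. Of these 9 markers 8 had positive log2 fold changes, none was at 0 in any library, and their part in the Kcnj16 values was not tested.

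Aqp4 encodes aquaporin-4, the water channel of endfeet. It reached 173, 132 and 253 CPM in sgRosa 1, 2 and 3+4 and 194, 262 and 303 CPM in sgEgfr 1 to 3. The 2 highest samples carried sgEgfr, and sgEgfr 1 lay between the sgRosa samples. The log2 fold change of sgEgfr over sgRosa, 0.44, had an SE of 0.28 and a 95% interval from -0.21 to 1.09 (edgeR adjusted p = 0.997), and the value was 0.24 without sgRosa 2. Slc4a4 encodes the sodium-bicarbonate cotransporter NBCe1, which moves base across the astrocyte membrane. The 3 sgRosa samples reached 754, 339 and 898 CPM and the 3 sgEgfr samples 576, 458 and 649 CPM, with sgRosa 2 lowest and sgRosa 3+4 highest. Its log2 fold change of sgEgfr over sgRosa, -0.24, had an SE of 0.36 and a 95% interval from -1.07 to 0.59 (edgeR adjusted p = 0.997). It was -0.56 without sgRosa 2 and 0.040 without sgRosa 3 and 4.

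Mlc1 and Hepacam encode partners: HEPACAM, also named GlialCAM, is an adhesion protein that brings the membrane protein MLC1 to astrocyte junctions. Mlc1 ran over the widest range of the 7 genes, with 380.2, 150 and 644 CPM in sgRosa 1, 2 and 3+4 and 496, 418 and 480.4 CPM in sgEgfr 1 to 3, a 4.30-fold span. Its log2 fold change of sgEgfr over sgRosa, 0.25, had an SE of 0.46 and a 95% interval from -0.81 to 1.31 (edgeR adjusted p = 0.997), and the value was -0.14 without sgRosa 2. Hepacam had the narrowest range, with 492, 567 and 555 CPM in sgRosa and 531, 593 and 463 CPM in sgEgfr, a 1.28-fold span. Its log2 fold change of sgEgfr over sgRosa, -0.02, had an SE of 0.18 and a 95% interval from -0.45 to 0.40 (edgeR adjusted p = 0.997). In contrast to the other 6 genes it was not low in sgRosa 2, at 0.10 above the median of the other samples on the log2 scale, where Mlc1 stood at -1.68 from it. Oligodendrocytes express Hepacam as well. The 15 oligodendrocyte markers took 11.1% of the counts of sgRosa 2, 7.42% and 9.62% in sgRosa 1 and 3+4, and 8.29% to 14.6% in sgEgfr, none was at 0, and their part in the level of Hepacam was not tested.

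As a pair, chosen after the values had been seen, Mlc1 had 77.3, 26.4 and 116 counts per 100 Hepacam counts in sgRosa 1, 2 and 3+4. In sgEgfr 1 to 3 it had 93.5, 70.5 and 104. The groups overlapped (mean difference 0.51 on the log2 scale, exact two-sided permutation p = 0.7), and the difference was -0.10 without sgRosa 2.

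All of the 7 genes but Kcnj16 and Hepacam, 5 in number, had their lowest CPM in sgRosa 2, as did 24.7% of all genes tested. Kcnj16 was lowest in sgRosa 1, with sgRosa 2 close to it. The sample sgRosa 3+4 was highest for Atp1b2, Slc4a4 and Mlc1. For 6 of the 7 genes the SD of the 3 sgRosa samples exceeded that of the 3 sgEgfr samples, from 467 against 116 CPM for Atp1b2 and 247 against 41.3 CPM for Mlc1 to 61.7 against 54.8 CPM for Aqp4. Hepacam was the exception, with 40.7 against 64.9 CPM. The share of all genes with a larger SD in sgRosa was not computed, and the same sample sgRosa 2 enters each of these SDs.

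Relating a gene to Atp1b2 asks how much of its RNA accompanied a given amount of the RNA of the bead antigen. On this scale most genes of the table lay lower in sgEgfr: of 14935 genes, 2505 had positive and 12430 negative log2 fold changes, with a median of -0.40. The log2 fold change of Atp1b2 itself, which enters every ratio, was 0.25 on the TMM scale and -0.015 without sgRosa 2. Values on this scale, of either sign, are therefore read against -0.40 and not against 0. edgeR called 0 genes (0%) with this offset, 397 (2.66%) had an unadjusted p under 0.05, and DESeq2 called 0 with 460 at an unadjusted p under 0.05. None of the 6 genes was among the 397.

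Kcnj10 had 66.5, 63.3 and 45.9 counts per 100 Atp1b2 counts in sgRosa 1, 2 and 3+4 and 31.7, 38.3 and 45.8 in sgEgfr 1 to 3. The ranges met at 45.9 in sgRosa 3+4 and 45.8 in sgEgfr 3, which is closer than counting error, and sgRosa 3 alone, at 45.6, lay below sgEgfr 3. Slc4a4 had 67.3, 50.7 and 56.0 in sgRosa and 38.8, 36.0 and 50.2 in sgEgfr. Here too the ranges nearly touched, at 50.7 in sgRosa 2 and 50.2 in sgEgfr 3. These 2 genes were the only ones of the 6 whose groups did not overlap, where 3.8% of all genes did not overlap in either direction and 3.38% did not with sgEgfr lower.

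The mean difference was -0.60 on the log2 scale for Kcnj10 and -0.48 for Slc4a4 (exact two-sided permutation p = 0.1 for each, the smallest possible here, with 3 of 3 sgEgfr samples lower). In the fit over all genes the values were -0.60 (SE 0.46) and -0.48 (SE 0.46), with an edgeR adjusted p of 0.779 for each. Against the median of all genes these are -0.20 and -0.08, and 26.7% and 40.9% of all genes had lower values. With each library left out, the mean difference ran from -0.73 to -0.46 for Kcnj10 and from -0.62 to -0.37 for Slc4a4. Most genes were negative on this scale, 12430 of 14935, so the sign alone does not set these 2 genes apart. The median of all genes was not computed with libraries left out. With the summed astrocyte markers in place of Atp1b2 the mean difference was -0.42 and -0.31 (exact two-sided permutation p = 0.2 for each), with groups that overlapped by then.

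Heat shock and early response genes, which cells can switch on during dissociation, were also measured. Whether their level came from handling, from the training of the mice or from the guide was not tested. Of 15 such genes 14 had positive log2 fold changes, with a median of 0.78 against 0.02 over all genes tested. The list took 0.158% to 0.300% of counts in sgRosa and 0.266% to 0.446% in sgEgfr, with no member at 0. An unadjusted p under 0.05 (edgeR) was found for 7 of the 15, against 2.68% of all genes. edgeR called 0 of them, as it called 0% of all genes. With the score of that list as a covariate, the log2 fold change on the TMM scale was 0.028 for Kcnj10 and 0.41 for Slc4a4, against -0.30 and -0.24 without it, and that of Atp1b2 was 0.79 against 0.25. With the score of astrocyte, endothelial or oligodendrocyte markers instead, Kcnj10 had -0.41, -0.44 and -0.26, and Slc4a4 had -0.42, -0.30 and -0.17. No gene was called in these fits. The heat shock list leaned higher in sgEgfr and there were 3 samples per guide, so a fit with its score cannot separate it from the guide. The part of these genes in the ratios to Atp1b2 was not tested.

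**Figure D2:**
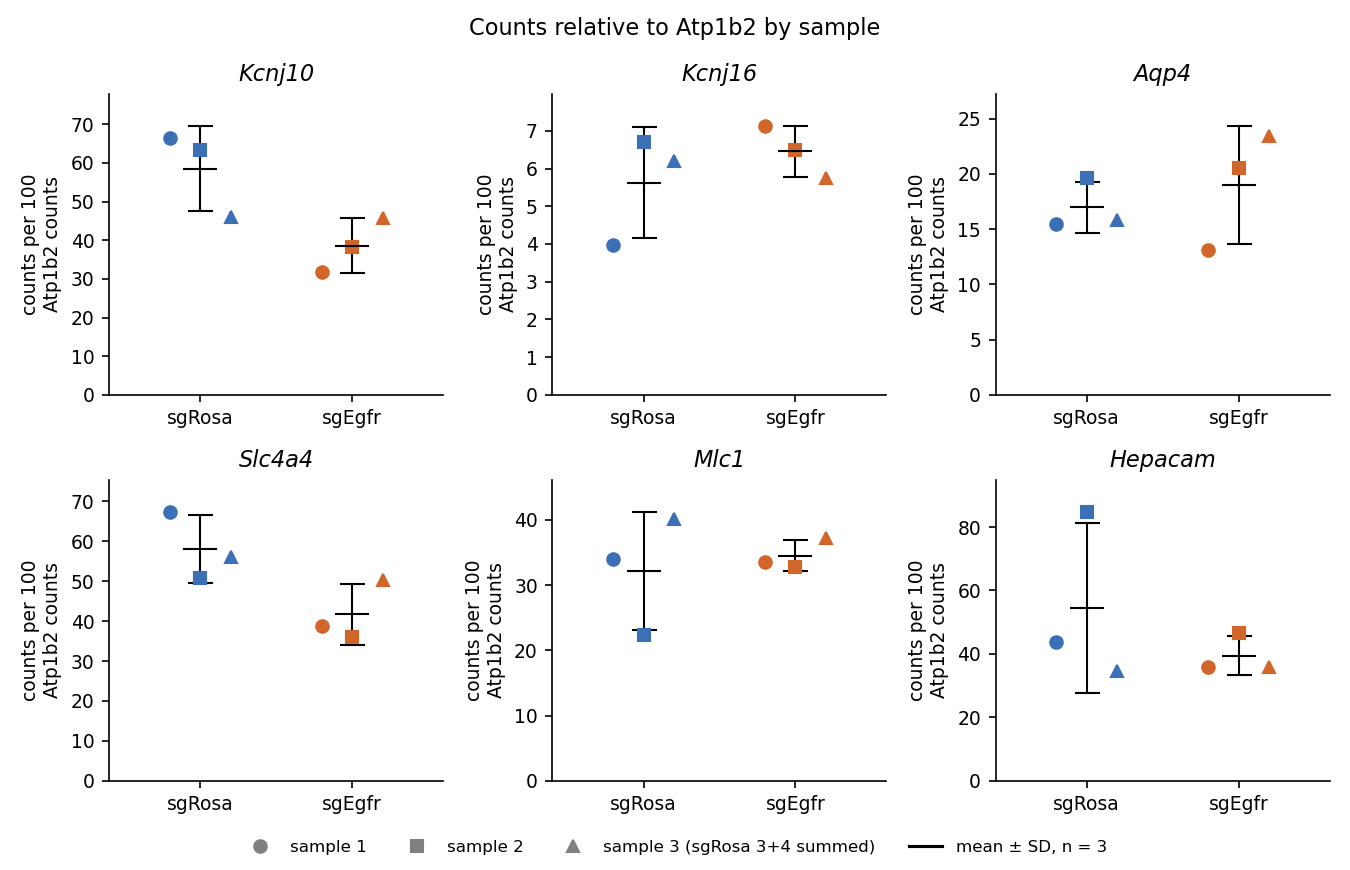
Counts of 6 genes per 100 counts of Atp1b2 (linear axis from 0) in each sample, with mean ± SD of 3 samples in black. For Kcnj10 and Slc4a4 the sgEgfr points lie at or below the lowest sgRosa point, by 45.8 against 45.9 and 50.2 against 50.7 at the closest, while the other 4 genes overlap.

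The other 4 genes overlapped between the guides on this scale. In the fit over all genes, Kcnj16 stood 0.60, Aqp4 0.57 and Mlc1 0.50 above the median of all genes, and Hepacam at -0.06 from it. Of all genes 89.9%, 89.0%, 87.1% and 42.2% had lower values, and none of the 4 was called. Kcnj16, Aqp4 and Mlc1 thus lay farther from that median than Kcnj10 and Slc4a4 did. Kcnj16 had 3.96, 6.71 and 6.21 counts per 100 Atp1b2 counts in sgRosa and 7.12, 6.48 and 5.76 in sgEgfr, so that 5 samples lay close together and sgRosa 1 was low. Its mean difference was 0.23 (exact two-sided permutation p = 0.6) and -0.0058 without sgRosa 1. Aqp4 had 15.5, 19.7 and 15.8 in sgRosa and 13.1, 20.6 and 23.4 in sgEgfr, with a mean difference of 0.13 (exact two-sided permutation p = 0.7) that was -0.040 without sgEgfr 3. The sgEgfr samples held both the lowest and the highest value of Aqp4.

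Mlc1 had 34.0, 22.4 and 40.2 counts per 100 Atp1b2 counts in sgRosa and 33.5, 32.8 and 37.2 in sgEgfr (mean difference 0.14, exact two-sided permutation p = 0.9, and -0.10 without sgRosa 2). Apart from sgRosa 2, its 5 samples stayed within 32.8 to 40.2. Hepacam had 43.9, 84.8 and 34.6 in sgRosa and 35.8, 46.6 and 35.9 in sgEgfr (mean difference -0.37, exact two-sided permutation p = 0.7, and 0.0041 without sgRosa 2). The high value of sgRosa 2 set the sgRosa mean of Hepacam. Counting error alone was small for all 6 ratios, at most 8.63% above the value at the upper 95% bound, for Kcnj16 in the shallowest library. Reads without molecular identifiers are not independent molecules, and such intervals cover counting error only.

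**Figure D3:**
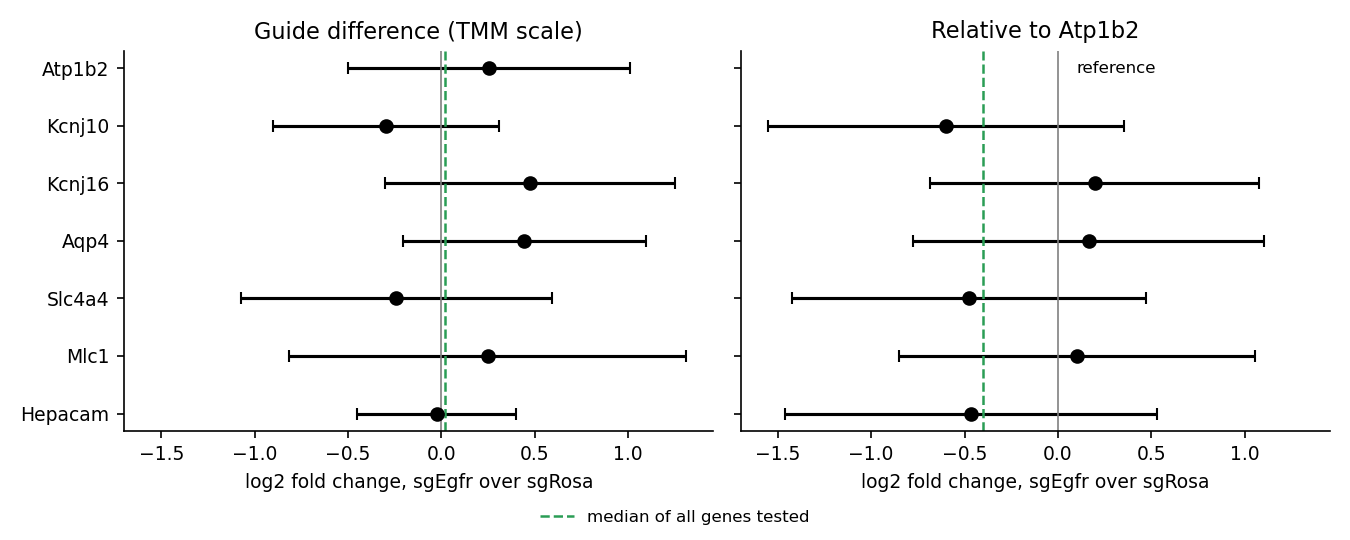
Log2 fold change of sgEgfr over sgRosa with its 95% confidence interval (edgeR, 3 samples per guide), on the TMM scale at left and relative to Atp1b2 at right; the dashed line is the median of all genes tested, 0.02 and -0.40. Every interval of the 7 genes includes 0.

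Dividing by Atp1b2 made some genes more even across samples and others less. Over the 6 samples, the SD of the log2 level went from 0.73 as CPM to 0.29 as a ratio for Mlc1, from 0.55 to 0.30 for Kcnj16, from 0.51 to 0.34 for Slc4a4 and from 0.45 to 0.31 for Aqp4. It went up from 0.34 to 0.41 for Kcnj10 and from 0.13 to 0.49 for Hepacam. The SD was smaller as a ratio for 4 of the 6 genes, and for 19.8% of 14715 genes with counts in every sample, whose median SD went from 0.35 to 0.57. Without sgRosa 2, the SD was smaller as a ratio for Mlc1 (0.29 to 0.12) and Kcnj16 (0.50 to 0.33), but not for Aqp4 (0.33 to 0.34) or Slc4a4 (0.37 to 0.37), and the share of all genes was 30.3%.

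**Figure D4:**
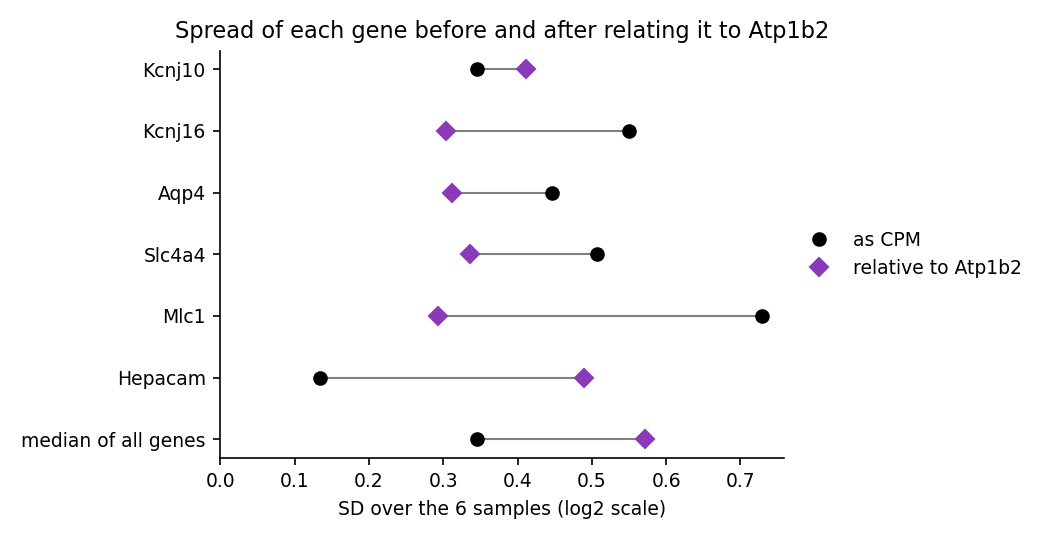
SD over the 6 samples on the log2 scale for each gene as CPM (black) and relative to Atp1b2 (purple), with the median over all genes in the bottom row. The purple mark lies left of the black one for Kcnj16, Aqp4, Slc4a4 and Mlc1, and right of it for Kcnj10, Hepacam and the median gene.

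Across the 6 samples Mlc1 followed Atp1b2 most closely. Pearson's r of the log2 CPM values was 0.99 (permutation p = 0.00139 over all 720 pairings, the smallest they can give) and Spearman's rho was 1.00 (permutation p = 0.00278), so the samples had the same order for both genes. Only 7 of 14935 genes had a higher r. Adjusted over all genes, 0 correlations (0%) passed a threshold of 0.05, since the smallest adjusted permutation p that arose was 0.314, that of Mlc1. Without sgRosa 2 and sgRosa 3+4, the 2 samples farthest from the median of Atp1b2, r of Mlc1 was 0.90 over the remaining 4.

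Kcnj16 had r = 0.83 (permutation p = 0.0111, adjusted 0.419) and rho = 0.83 (permutation p = 0.0583), with r = 0.96 without those 2 samples. A positive r at an unadjusted p under 0.05, as these 2 genes had, was found for 5.62% of all genes. Slc4a4 had r = 0.76 (permutation p = 0.0778, adjusted 0.520) and rho = 0.60 (permutation p = 0.242), and Aqp4 had r = 0.76 (permutation p = 0.0736, adjusted 0.517) and rho = 0.54 (permutation p = 0.297). Both rested on the 2 extreme samples, for r was -0.47 and 0.17 without them.

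Kcnj10 had r = 0.49 (permutation p = 0.357, adjusted 0.724) and rho = 0.26 (permutation p = 0.658), and r = -0.86 over the 4 remaining samples. Hepacam had r = -0.17 (permutation p = 0.772, adjusted 0.916) and rho = -0.20 (permutation p = 0.714), and 0.24 over the 4. All p-values of these 6 relations are two-sided and were adjusted over 14935 genes, whose median r was 0.02. Correlations within a guide, over 3 samples each, were not computed, and all values share the scaling of their library.

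**Figure D5:**
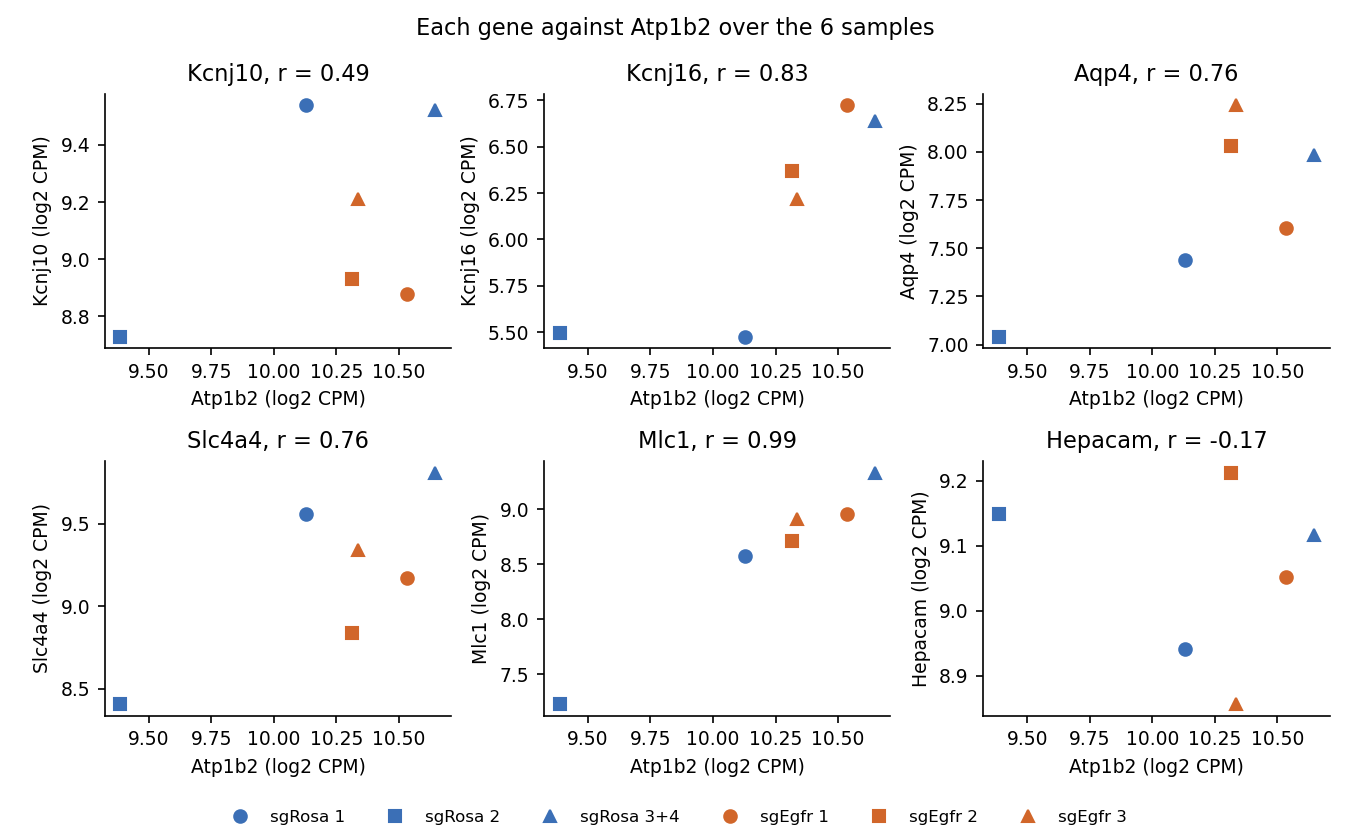
Each of 6 genes against Atp1b2 (both log2 CPM), 1 point per sample, blue for sgRosa and orange for sgEgfr, with Pearson's r above each panel. sgRosa 2 lies alone at the left in every panel, the Mlc1 points form a line (r = 0.99), and the Hepacam points do not (r = -0.17).

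The genes whose profile over the 6 samples was most like that of Atp1b2, by Pearson's r of log2 CPM, were Fndc4 (0.998), Adgrl3, an adhesion receptor of the latrophilin family (0.997), 1700003M07Rik (0.996), the imprinted gene Zdbf2 (0.996) and Bad, a BCL2 family member (0.995). Zdbf2 was at 0.209 to 4.51 CPM and the other 4 at 12.8 to 88.5 CPM. Closest to the mean profile of the 7 genes, each as a z-score, were Tcf7l1, a transcription factor of the Wnt pathway (0.994), Cnnm2, a magnesium transport protein (0.993), Gm20743 (0.981), Itgb1bp1 (0.981) and Cby1 (0.980). Gm20743 was near the floor, at 0 CPM in sgRosa 2 and at most 1.91 CPM, and the other 4 were at 3.50 to 37.2 CPM. That mean profile was -0.16, -1.22 and 0.89 in sgRosa 1, 2 and 3+4 and 0.16, 0.19 and 0.14 in sgEgfr 1 to 3. Mlc1 (r = 0.97) and Atp1b2 (0.97) lay nearest to it among the 7 and Hepacam (-0.09) farthest. Each of the 7 is itself part of the mean, which raises its r.

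The wider machinery was read from 40 further genes in 5 lists. All 40 were tested, 0 were called by edgeR, 2 had an unadjusted p under 0.05, and 25 had positive and 15 negative log2 fold changes, with a median of 0.02 against 0.02 over all genes. The direction of most depended on the scale: relative to Atp1b2, 7 of the 40 were positive. In CPM, 3 of the 40 did not overlap with sgEgfr higher, where 3.76% of all genes did so, and 1 with sgEgfr lower, where 3.85% did so.

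Of the 8 other sodium pump subunits and regulators, 7 had positive log2 fold changes on the TMM scale. Fxyd6, a small regulator of the pump, measured 3.53, 8.31 and 5.66 CPM with sgRosa against 19.5, 14.3 and 8.53 CPM with sgEgfr, with 3 of 3 sgEgfr samples higher (log2 fold change 1.27, SE 0.42, edgeR unadjusted p = 0.0184, adjusted p = 0.997). For Atp1b1 the log2 fold change was 0.44 (SE 0.32) and for Fxyd7 0.42 (SE 0.34), both with overlap. Neuron markers took 0.0331% to 0.0507% of counts in sgRosa and 0.0471% to 0.0596% in sgEgfr. All 11 tested had positive log2 fold changes, Slc17a7 was at 0 in at least 1 library, and their part in Fxyd6 and Fxyd7 was not tested.

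Among 6 other potassium channels, 3 were positive and 3 negative. Kcnj2, the Kir2.1 channel, measured 2.82, 2.98 and 1.72 CPM with sgRosa against 1.33, 1.18 and 0.831 CPM with sgEgfr, with 3 of 3 sgEgfr samples lower (log2 fold change -1.17, SE 0.42, edgeR unadjusted p = 0.0245, adjusted p = 0.997). The two-pore channels Kcnk1 and Kcnk10 had 0.16 and 0.31, and the calcium-activated channel Kcnma1 had -0.09.

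Acid-base and chloride transport genes, 11 in all, were 7 positive and 4 negative. Slc12a2, the cotransporter NKCC1 that brings in sodium, potassium and chloride, measured 394, 448 and 267 CPM with sgRosa against 268, 301 and 259 CPM with sgEgfr (log2 fold change -0.42, SE 0.22). The groups overlapped at sgRosa 3+4. Over the 6 samples it ran against Atp1b2, with sgRosa 2 its highest sample. The anion exchanger Slc4a2 had -0.22 (SE 0.15) and the potassium-chloride cotransporter Slc12a4 had 0.16.

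Of 5 genes whose products bind or act with MLC1 and HEPACAM, 1 was positive and 4 negative, and all 5 groups overlapped. Lrrc8a, the volume-regulated anion channel, measured 335, 197 and 385 CPM with sgRosa against 222, 159 and 321 CPM with sgEgfr (log2 fold change -0.39, SE 0.33). Gprc5b had -0.16, the chloride channel Clcn2 -0.09 and the osmosensitive channel Trpv4 -0.25, at 0.589 to 2.49 CPM. Of 10 listed genes around dystrophin and dystroglycan, whose complex holds AQP4 at the endfoot, 7 were positive and 3 negative, with a median of 0.02. Dtnb, a dystrobrevin, measured 19.4, 17.6 and 15.3 CPM with sgRosa against 22.4, 21.1 and 25.9 CPM with sgEgfr, with 3 of 3 sgEgfr samples higher (log2 fold change 0.41, SE 0.19, edgeR unadjusted p = 0.0609, adjusted p = 0.997). Which cells the RNA of Dtnb came from was not tested. The syntrophin Sntb1 had 0.47 (SE 0.45), dystrophin itself, Dmd, 0.09 and the astrocyte dystrobrevin Dtna 0.08.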

How the data were processed

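The deposited values are raw read counts, in 1 table and again in 7 single-library files that hold identical numbers. Per the submitters' processing notes the build was mm10 and the tools were fastp 0.23.2, STAR 2.7.5c, featureCounts 2.0.1, FastQC 0.11.9, MultiQC 1.11 and edgeR 3.42.4. For the annotation, the strand setting and reads with several matches, the settings are not given in the sources used here.

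Groups came from the sample titles. Libraries sgRosa 3 and 4 were summed because a chi-square test (genes of 20 or more counts per pair) set them apart from all other pairs. Genes were kept with filterByExpr (minimum count 10, minimum total 15), scaled with TMM and tested by the quasi-likelihood functions glmQLFit and glmQLFTest (edgeR 4.0.16, R 4.3.3). The model held the guide alone, with Benjamini-Hochberg adjustment over all genes (common biological coefficient of variation 0.386). For values relative to Atp1b2, the log count of Atp1b2 replaced the library size. Correlations used log2 CPM with a prior count of 2. Depth set 3 counts at 0.133 CPM in the deepest library and 0.513 CPM in the shallowest. The scripts were tested on simulated data.

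The genes and lists were chosen with earlier results of these data known. Named were the 7 genes, Egfr, up to 4 genes of the smallest unadjusted p in each further list, and 5 genes most like Atp1b2 and 5 most like the mean of the 7. Some genes of the further lists are counted in them but not reported here by name. Alternatives were DESeq2 1.42.0, limma-voom (limma 3.58.1), other scalings, filters, covariates, offsets, a replicate block and libraries left out. Plots used matplotlib 3.10.9.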

Additional observations from a re-analysis of the deposited data

How the results depend on the processing

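With TMM scaling, none of the genes tested, the 7 genes and the 40 further genes included, was called under any alternative run. Relative to Atp1b2, 0 of the 6 genes were called in any, but counts over all genes were 0 to 62 with each library left out (48 without sgEgfr 1, 62 without sgEgfr 2, 7 without sgEgfr 3), 41 with no filter, 4 with the stricter filter and, chosen after seeing the data, 216 without sgRosa 2 and sgEgfr 3. An offset from 1 gene shifts all genes together. Slc4a4 per Atp1b2 gave -0.47 (exact permutation p = 0.0286) with the 7 libraries as separate samples, which counts sgRosa 3 and 4 as 2. With each library left out, the log2 difference of the ratio ranged from -0.73 to -0.46 for Kcnj10, -0.62 to -0.37 for Slc4a4, -0.0058 to 0.37 for Kcnj16, -0.040 to 0.38 for Aqp4, -0.10 to 0.20 for Mlc1 and -0.50 to 0.0041 for Hepacam, and without sgRosa 2 and sgEgfr 3 it was -0.16 for Mlc1 and 0.067 for Hepacam. The log2 fold changes on the TMM scale ranged from -0.015 to 0.28 for Atp1b2 and -0.14 to 0.30 for Mlc1 (negative without sgRosa 2), from -0.13 to 0.063 for Hepacam (positive at 0.014 without sgRosa 2 and at 0.063 without sgEgfr 3) and from -0.55 to 0.27 for Egfr (0.056 without sgEgfr 2). Without sgRosa 3 and 4, Slc4a4 was 0.040, Hepacam 0.0014 and Egfr 0.019. Without sgRosa 2 and sgEgfr 3, Mlc1 was -0.16 and Hepacam 0.10. With the heat shock score Kcnj10 was 0.028, Slc4a4 0.41 and Egfr 1.43, with the endothelial score Hepacam was 0.039, with the oligodendrocyte score Egfr was 0.070, and with limma-voom Egfr was 0.18. In the fit relative to Atp1b2, left-out ranges were -0.0014 to 0.34 for Kcnj16, -0.012 to 0.37 for Aqp4, -0.10 to 0.14 for Mlc1 and -0.60 to 0.0053 for Hepacam, and without sgRosa 2 and sgEgfr 3 Mlc1 was -0.16 and Hepacam 0.069. Mlc1 per Hepacam ranged from -0.10 (without sgRosa 2) to 0.67 and was -0.22 without sgRosa 2 and sgEgfr 3. The partner ratio of Kcnj16 to Kcnj10 ranged from 0.49 to 1.04. The causes were not tested. Samples with the same replicate number did not all deviate together (r = -0.11, 0.52 and 0.55 for numbers 1, 2 and 3). sgRosa 1 correlated best with sgEgfr 3, while sgRosa 2 and sgRosa 3+4 correlated best with the sgEgfr sample of their own number. Profiles centred on 3 samples per guide cannot tell whether the numbers pair the samples. The replicate block called 0 genes on both scales, with 705 against 401 genes at an unadjusted p under 0.05 with TMM and 244 against 397 relative to Atp1b2, and gave Egfr 0.060.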

Other observations

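Markers of other cells of the amygdala were measured in the same libraries. All 12 microglia markers had positive log2 fold changes (median 0.48), and they took 0.0172% to 0.0341% of counts in sgRosa and 0.0217% to 0.0474% in sgEgfr, so the groups overlapped. Of 11 endothelial markers 9 were positive (median 0.70), at 0.00479% to 0.00771% in sgRosa and 0.00768% to 0.00909% in sgEgfr. Of 7 pericyte and smooth muscle markers 3 were positive (median -0.01), at 0.0619% to 0.0679% and 0.0550% to 0.0685%, with Tagln at 0 in at least 1 library. Over all genes tested, 52.9% had positive log2 fold changes. edgeR called 0 markers of these lists, as it called 0% of all genes. An unadjusted p under 0.05 was found for 4 of the 11 endothelial markers, against 2.68% of all genes. It was found for 0 of the microglia markers and 0 of the pericyte and smooth muscle markers. Ependymal markers, which belong to cells lining the ventricles, varied most. They took 0.00538% to 0.0475% of counts in sgRosa and 0.00392% to 0.131% in sgEgfr, highest in sgEgfr 3 and sgRosa 3+4. All 10 had positive log2 fold changes (median 1.47), with 0 at an unadjusted p under 0.05 and 0 called by edgeR. Tmem212, Hydin and Dnah12 were at 0 in at least 1 library. Ependymal cells also express Aqp4, whose CPM was highest in sgEgfr 3, and their part in the Aqp4 values was not tested.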
